A study of Danio rerio with 24 samples.

Results

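Interleukins and chemokines are small secreted proteins by which blood cells signal to each other. They act through receptor chains on the cell surface, of which many interleukin receptors and the interferon receptors signal through JAK kinases and STAT factors. The receptors of the interleukin-1 and interleukin-17 families and those of tumour necrosis factor (TNF) signal to NF-kB, and the chemokine receptors through G proteins that steer migration. In the kidney marrow of adult zebrafish, the site of blood formation, such genes mark lymphocytes, macrophages, neutrophils and their precursors. The genes described here were all those whose Ensembl name begins with il and a number, ccl, cxcl, ccr and a number, cxcr, tnf, ifn, or csf1, csf2 or csf3, together with *eslec*, which was placed beside *il4* and *il13*. A set of 8 receptors (*il6r*, *il7r*, *il2rb*, *csf3r*, *ccr9a*, *ccr7*, *cxcr3.2* and *cxcr4b*) was left out. The name pattern, with this addition and these exclusions, gave 120 of the 23981 genes listed in the files. The set was chosen with earlier results of these data known.

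Single cells of whole kidney marrow (WKM) from fish of 3 months had been gated on light scatter, sorted 1 per well and sequenced with mCEL-Seq2, a plate method that reads the 3′ ends of transcripts and counts them by unique molecular identifiers (UMIs). The groups were wild-type fish, fish homozygous for IT325, a nonsense allele of *ikzf1* whose protein lacks the C-terminal zinc fingers used for dimerization, and fish homozygous for fr105, a CRISPR/Cas9 deletion in *ikzf1* whose protein has lost the zinc fingers that bind DNA except the one nearest the N-terminus, along with the C-terminal ones. No group received a treatment. *ikzf1* encodes Ikaros, a zinc finger transcription factor required for lymphoid development. Each group had 8 libraries of 96 barcodes in use, and a barcode with at least 1500 transcripts was taken as a cell, which left 345 wild-type, 359 IT325 and 304 fr105 cells.

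The cells of a library held between 86165 and 519252 transcripts. The median per cell ranged from 3160 to 4502 transcripts in wild-type, from 5364 to 8753 in IT325 and from 3264 to 6120 in fr105 libraries, so IT325 cells held more transcripts. RNA per cell, the mix of cell types and sequencing depth cannot be told apart in these totals. Levels are given as transcripts of a gene per 1000000 transcripts in the cells of a library (CPM), which scales for total depth, while detection of a gene in a cell does not. *ikzf1* itself was at 25.3 to 85.0 CPM in wild-type, 104 to 206 in IT325 and 102 to 183 in fr105 libraries. Reads near the 3′ end do not read the mutated parts of the gene, so this does not check the labels. All libraries carry the same barcodes by design, a well received 1 sorted cell, and doublets were not called. The labels name no fish, so the libraries need not come from separate fish, and the study's methods describe 8 libraries of each genotype per sequencing lane. If each lane held 1 genotype, lane and genotype cannot be told apart.

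Clustering without these 120 genes gave 14 clusters. Neutrophil-like cells were the most numerous (444 cells in clusters 0, 1 and 2), followed by erythroid-like (91), macrophage-like (81), T cell-like (45), B cell-like (40) and kidney tubule-like cells (36). A further 5 clusters stayed unnamed. These were cluster 3 (106 cells, with 8 neutrophil and 7 progenitor markers, led by genes such as *cd34*, *flt3* and *mki67*), cluster 5 (69 cells led by mitochondrial genes), cluster 8 (44 cells with 5 progenitor and 5 T cell markers), cluster 10 (36 cells led by tubule genes) and cluster 13 (16 cells, all from IT325). The classes were not evenly filled. Wild-type fish gave 36 of the 40 B cell-like cells, fr105 gave 1 of the 45 T cell-like cells, IT325 gave 59 of the 91 erythroid-like cells, and 34 of the 36 kidney tubule-like cells came from the mutants. In a sum over all cells of a library, a change in the number of cells of a type and a change in RNA per cell cannot be told apart, so the level within classes is given, without a test, for the genes called and for several others.

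Most of these genes were rare. Their transcripts came to 11199 over the 1008 cells, or 1619 CPM. A total of 118 genes had at least 1 transcript, 58 had 20 or more, and *CXCR1* and *cxcl11.5* had none. The other 60 had between 1 and 19 transcripts, among them *tnfa* (6), *ifng1* (5), *il22* (2), *il10* (12) and the 3 genes of the il17a/f group (1 to 3 each). Receptors outweighed ligands. The 17 interleukin receptor genes gave 2626 transcripts, against 864 from the 21 interleukins, and the 9 TNF receptors gave 1214, against 159 from the 10 TNF ligands. Chemokines were the exception among the 120 genes, with 1213 transcripts from 29 genes against 778 from 12 chemokine receptors. This exception rests on the receptors left out by the rule. Of these, *cxcr4b* alone had 1568 transcripts in the wild-type neutrophil-like cells. The barcodes of each set that received no cell held 109 transcripts of the 120 genes, 0.898% of all the transcripts of these genes in the files. This is a measure of RNA or reads assigned to barcodes without a cell. It does not measure transfer between the barcodes in use.

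**Figure D1:**
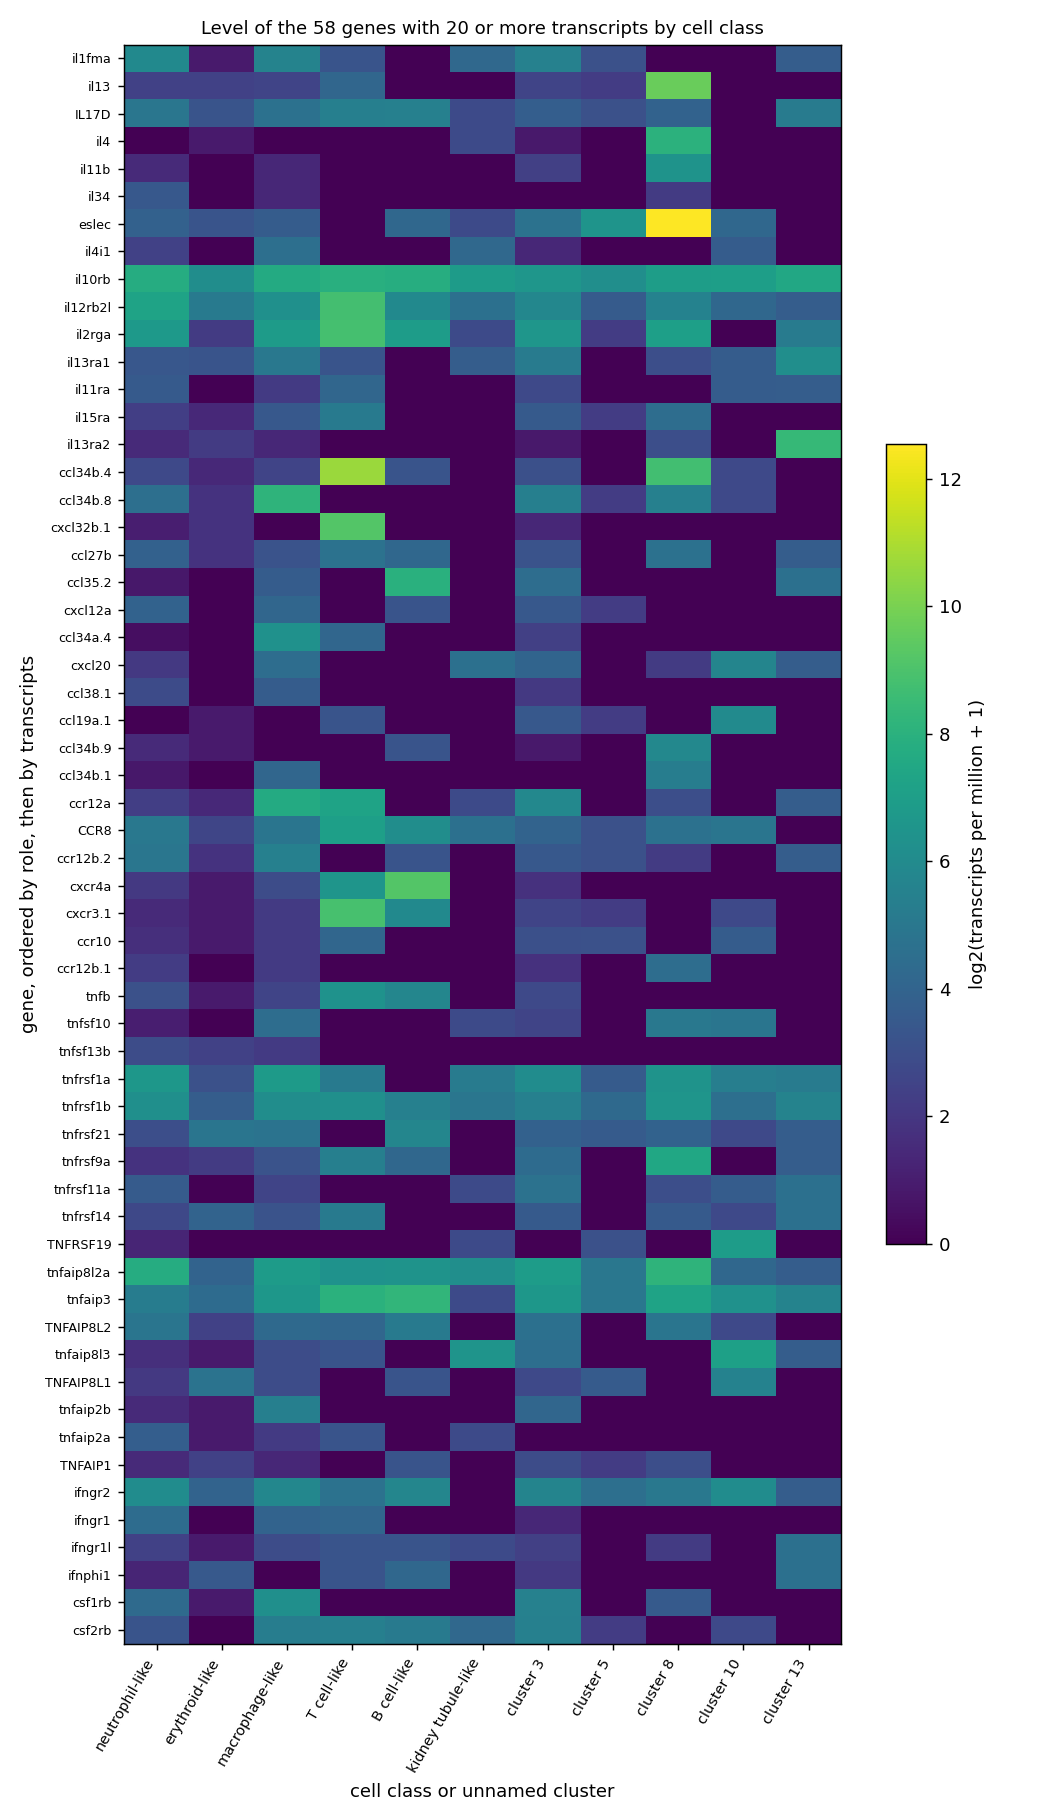
Level of the 58 genes with 20 or more transcripts (rows, ordered by role) in each cell class or unnamed cluster (columns), as log2 of CPM plus 1, over the cells of all genotypes. The brightest cells are *eslec* and *il13* in cluster 8 and *ccl34b.4* in T cell-like cells, while *il10rb* is above 0 in every column.

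Among the secreted interleukins, *il4* and *il13* were concentrated in cluster 8. Both encode cytokines of type 2 immunity. Cluster 8 held 74 of the 77 *il4* transcripts and 230 of the 259 *il13* transcripts. *il13* was found in 17 of the 44 cells of cluster 8 (38.6%, 95% exact interval 24.4 to 54.5) and in 5 of 91 erythroid-like cells (5.49%) and 12 of 444 neutrophil-like cells (2.70%), each cell of both classes holding a single transcript. The median cell of cluster 8 had 4044 transcripts, of the erythroid-like class 10066 and of the neutrophil-like class 5093. A share of the size found in erythroid-like cells was read as background. The cells with *il13* outside cluster 8 lay mostly in libraries that also held a cluster 8 cell with several transcripts of it. In wild-type replicate 5, where such a cell held 41, they were neutrophil-like, macrophage-like, erythroid-like and T cell-like. IT325 replicate 1 held an *il13* transcript without such a cell. Transfer of transcripts between wells was not tested. *il4* was found in 16 cells of cluster 8 and in 0 of 444 neutrophil-like cells, which allows up to 0.676% of cells with a UMI and sets no limit on cells that express it. Both genes were found together in 14 cells from 12 libraries, all of them in cluster 8.

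*eslec* had the most transcripts of the 120 genes (1794) and lay in other cells of the same cluster. A group of 10 cells with 20 or more *eslec* transcripts each, up to 496, held 1662 of them (92.6%), and all 10 were in cluster 8. They held 0 transcripts of *il4* and 0 of *il13*. The 17 cells with 3 or more transcripts of *il4* or *il13* were also all in cluster 8 and held 1 transcript of *eslec* in total. No cell held all 3 genes. Outside cluster 8 *eslec* was sparse, and 56 of its 82 cells had a single transcript. Many of these lay in libraries with a rich cell, such as fr105 replicate 5 and IT325 replicate 3, whose richest cells held 496 and 272. Others lay in libraries without one, such as IT325 replicate 4. Transfer between wells was not tested here either.

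**Figure D2:**
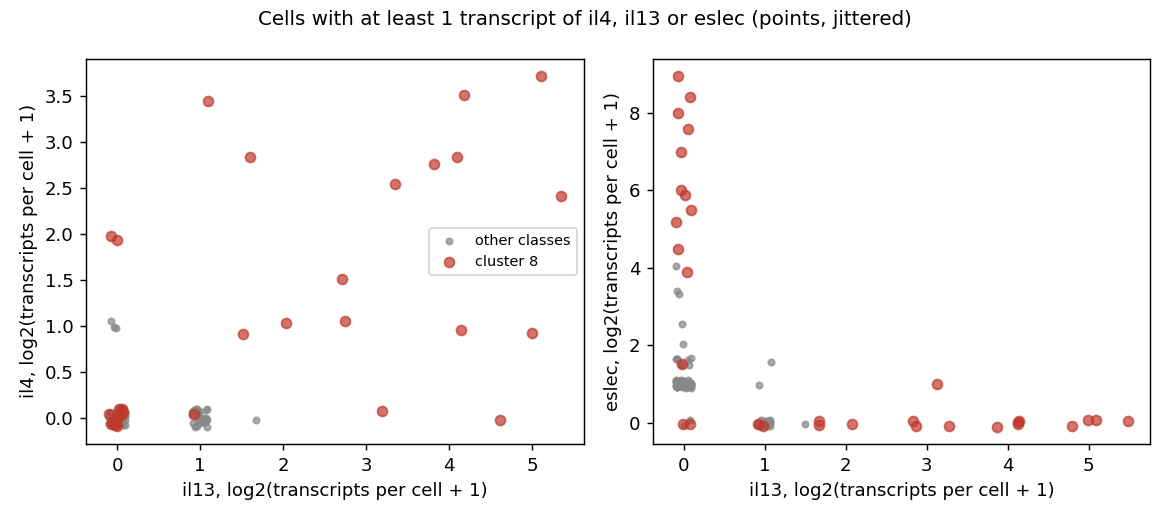
Each point is a cell with at least 1 transcript of *il4*, *il13* or *eslec*, placed by log2 of transcripts per cell plus 1, with a small random shift; red marks cluster 8. *il4* and *il13* lie together in 14 cells of cluster 8 (left), while cells with 20 or more *eslec* transcripts have no *il13* (right).

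By genotype, *il4* was at 0 to 32.2 CPM in wild-type (median 3.47), 0 to 68.7 in IT325 (median 14.8) and 0 to 24.7 in fr105 libraries (median 0). It was above 0 in 4, 6 and 2 of 8 libraries and was too rare to test. *il13* ranged from 0 to 154 CPM in wild-type (median 43.1), from 1.93 to 95.3 in IT325 (median 28.7) and from 0 to 69.7 in fr105 (median 0), and was found in 4, 8 and 3 of 8 libraries. The groups overlapped, and no comparison of *il13* passed the threshold in edgeR's quasi-likelihood test with Benjamini-Hochberg adjustment. The log2 difference was -0.83 ± 0.76 (SE) for IT325 against wild-type (adjusted p = 0.47) and -2.33 ± 0.95 for fr105 against wild-type (adjusted p = 0.073). Leaving out fr105 replicate 4 or wild-type replicate 2, 6 or 8 took the fr105 value past the threshold, with values of -2.73, -2.52, -2.55 and -2.55, as did the fit with no filter on low counts (edgeR adjusted p = 1.6e-08). Cluster 8 held 6 wild-type, 28 IT325 and 10 fr105 cells, of which 5, 9 and 3 had *il13*.

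*eslec* had the widest range between libraries of the 120 genes. It ranged from 0 to 1404 CPM in wild-type (median 5.64), from 0 to 632 in IT325 (median 26.3) and from 0 to 2802 in fr105 libraries (median 33.2). The highest wild-type value came from 1 cell of replicate 4 with 121 transcripts, and 2 cells of fr105 replicate 5 held 845 of the 1172 fr105 transcripts. The 10 cells rich in *eslec* came from 7 libraries, with 1 wild-type cell, 4 IT325 cells and 5 fr105 cells. The groups overlapped, and neither mutant differed from wild-type past the threshold (IT325 0.51 ± 1.32, edgeR adjusted p = 0.82; fr105 2.09 ± 1.31, edgeR adjusted p = 0.26). Without wild-type replicate 4 the values were 5.13 (adjusted p = 0.031) and 6.72 (adjusted p = 0.0031), so both calls depended on the library that held this cell. They also depended on the test, since DESeq2's Wald test called both over all libraries (4.11 and 3.88, adjusted p = 0.019 and 0.025), and edgeR called fr105 with no filter on low counts (2.24, adjusted p = 8.8e-22) and in the P2 libraries alone, the set of 4 per genotype so labelled (7.27, adjusted p = 0.020).

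The remaining interleukins were spread more widely. *il1fma*, a member of the interleukin-1 family, had 259 transcripts, of which 64.5% were in neutrophil-like cells. *IL17D* (140 transcripts) was found as 1 or 2 transcripts in each of 127 cells, and 57.1% of its transcripts were in neutrophil-like cells. It was found in 72 of 444 neutrophil-like, 13 of 81 macrophage-like, 5 of 45 T cell-like and 5 of 40 B cell-like cells. Since neutrophil-like cells were 444 of the 1008 cells, a share in this class does not by itself show a higher level. *il11b*, which encodes a cytokine of the interleukin-6 family, had 35 transcripts, 68.6% in cluster 8. It was at 65.4 CPM in fr105 replicate 3 and at most 22.5 in any other library. *il34*, a ligand of the macrophage colony stimulating factor receptor, had 29 transcripts, 93.1% in neutrophil-like cells. *il4i1*, named for its induction by interleukin 4 and encoding an amino acid oxidase in mammals, had 33 transcripts, none of them in wild-type cells.

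Of the 120 genes, 14 had enough transcripts to pass the filter on low counts over all cells and were tested among 3296 genes. Between IT325 and wild-type 3 of the 14 were past an adjusted p of 0.05, with 2 higher and 1 lower, where 21.8% of all genes tested were called (11.5% higher and 10.3% lower). Between fr105 and wild-type 6 of the 14 were called, with 4 higher and 2 lower, where 23.9% of all genes were called (11.6% higher and 12.3% lower). Between fr105 and IT325 2 of the 14 were called, both higher in fr105, where 28.7% of all genes were called (15.3% higher). The median log2 difference of the 14 was -0.10, 0.03 and 0.08 in the same order, against 0.00, 0.02 and -0.03 over all genes tested. Both comparisons with wild-type share the same wild-type libraries. A gene that passed the filter only through the genotype in which it was high could hardly have failed to differ, which holds for *ccl34b.8* and *il1fma*, so these counts say nothing of the genes that were not tested.

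**Figure D3:**
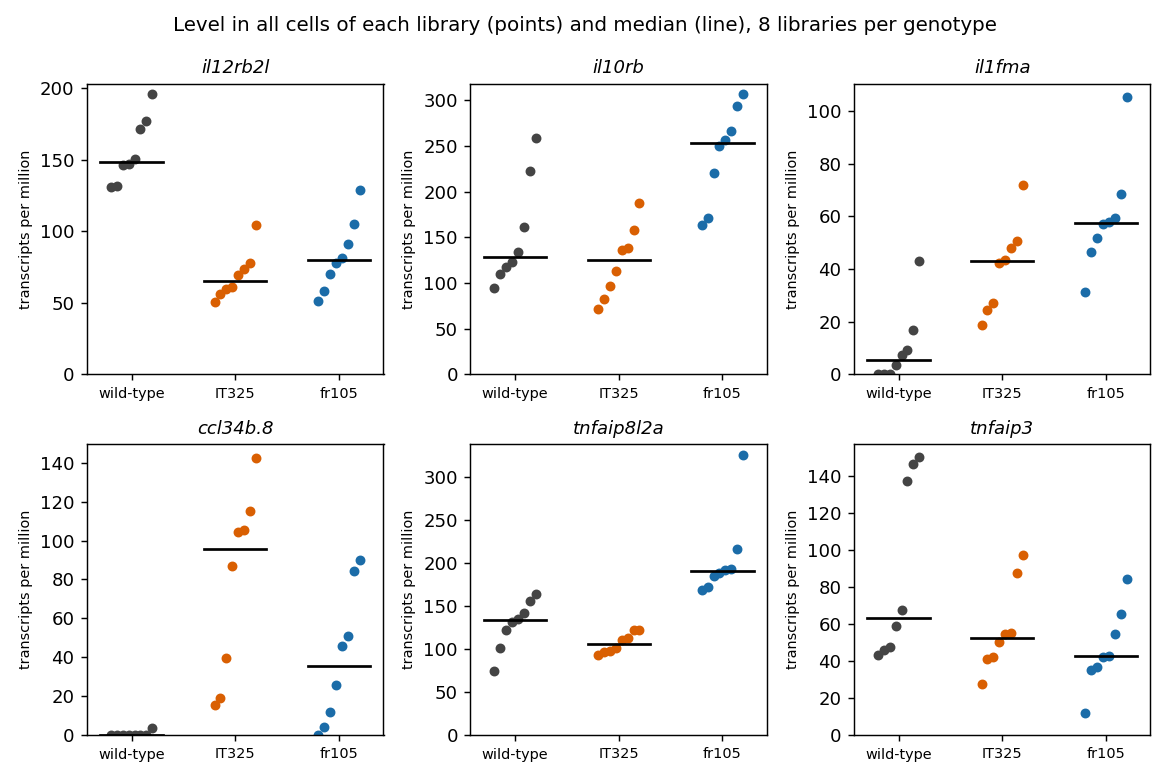
CPM of 6 genes in all cells of each library (points, 8 per genotype), with the median as a line. The libraries of wild-type lie above those of both mutants for *il12rb2l*, and those of fr105 lie above both other genotypes for *tnfaip8l2a*.

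*il12rb2l*, named as similar to the beta 2 chain of the interleukin 12 receptor, was lower in both mutants. Its level was between 131 and 196 CPM in wild-type (median 149), between 50.6 and 105 in IT325 (median 65.2) and between 51.2 and 129 in fr105 libraries (median 79.7). No library of either mutant reached the lowest wild-type library. It fell by 1.03 ± 0.17 (SE) on the log2 scale in IT325 (edgeR adjusted p = 4.1e-05) and by 0.92 ± 0.17 in fr105 (edgeR adjusted p = 0.00027). The difference between the mutants was 0.10 ± 0.18 (edgeR adjusted p = 0.70). With each cell thinned to 1500 transcripts *il12rb2l* was found in 22.0% of wild-type cells, 11.1% of IT325 cells and 11.2% of fr105 cells, against 48.1%, 35.7% and 31.9% before thinning.

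*il12rb2l* was highest in T cell-like cells (447 CPM, 27 of 45 cells) and next in neutrophil-like cells (157 CPM, 238 of 444 cells), which gave 64.5% of its transcripts. Within T cell-like cells it was at 560 CPM in 25 wild-type cells and 266 in 19 IT325 cells. In neutrophil-like cells alone, it ranged from 210 to 335 CPM in wild-type (median 254), from 62.1 to 227 in IT325 (median 125) and from 85.1 to 168 in fr105 libraries (median 113). The fr105 libraries all lay below wild-type, and IT325 overlapped it. It fell by 0.98 ± 0.22 in IT325 (edgeR adjusted p = 0.00069) and by 1.08 ± 0.22 in fr105 (edgeR adjusted p = 0.00038). In the P2 libraries alone the fr105 value in this class was -0.84 (edgeR adjusted p = 0.065). It was the only one of the 5 genes tested in neutrophil-like cells that was called in these comparisons, in which 37% (19.4% higher, 17.6% lower) and 19.6% (9.37% higher, 10.3% lower) of the 1558 genes tested were called.

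The neutrophil-like cells of the genotypes lay in different clusters. Cluster 2 held 97 of the 113 IT325 cells of the class, while clusters 0 and 1 held 174 of the 179 wild-type and 147 of the 152 fr105 cells. *il12rb2l* was lower in the mutants in clusters that they share with wild-type. In cluster 1 it was at 287 CPM in 61 wild-type cells, 110 in 15 IT325 cells and 117 in 69 fr105 cells. In cluster 0 it was at 248 in 113 wild-type and 122 in 78 fr105 cells. These values have no test.

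**Figure D4:**
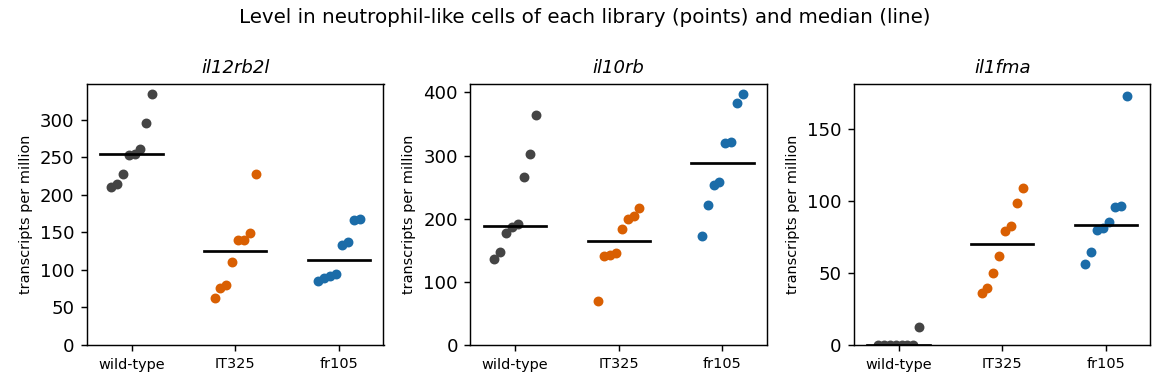
CPM of *il12rb2l*, *il10rb* and *il1fma* in the neutrophil-like cells of each library (points, 8 per genotype), with the median as a line. *il1fma* is above 0 in 1 wild-type library and in all 16 mutant libraries.

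*il1fma* was higher in both mutants. It was at 0 to 43.0 CPM in wild-type (median 5.35, above 0 in 5 of 8 libraries), 18.8 to 72.1 in IT325 (median 42.9) and 31.3 to 105 in fr105 libraries (median 57.5). Only wild-type replicate 3, at 43.0, reached the mutant range. The log2 difference was 2.13 ± 0.45 for IT325 (edgeR adjusted p = 0.00090) and 2.60 ± 0.45 for fr105 (edgeR adjusted p = 9.9e-05). The mutants differed from each other by 0.46 ± 0.34 (edgeR adjusted p = 0.32). Without wild-type replicate 3 the differences from wild-type were 2.79 (edgeR adjusted p = 4.1e-05) and 3.26 (5.1e-06), and in the P1 libraries alone IT325 differed by 2.06 (edgeR adjusted p = 0.054). *il1fma* passed the filter on low counts through the mutants, in which it is high. Its tests against wild-type therefore add nothing to the levels.

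The wild-type cells with *il1fma* lay mostly outside the neutrophil-like class, while the mutants had it both within and outside that class. In neutrophil-like cells it was found in 1 of 179 wild-type cells, 41 of 113 IT325 cells and 56 of 152 fr105 cells, or at 1.36, 69.0 and 96.5 CPM. The lowest mutant library was at 35.7 CPM in this class and the highest wild-type library at 12.7. In cluster 0 it had 0 transcripts in 113 wild-type and 44 in 78 fr105 cells. In macrophage-like cells it was found in 3 of 21, 8 of 20 and 10 of 40 cells, and in cluster 3 in 5 of 39, 13 of 44 and 7 of 23 cells. The gene was too rare for the filter in neutrophil-like cells.

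*il10rb*, the shared second chain of the interleukin 10 receptor family, was the receptor found in most cells, with 1080 transcripts in 532 of them. It was at 94.1 to 259 CPM in wild-type (median 129), 71.0 to 187 in IT325 (median 125) and 163 to 307 in fr105 libraries (median 253). The groups overlapped. It was higher in fr105 than in wild-type by 0.69 ± 0.20 (edgeR adjusted p = 0.012) and than in IT325 by 0.79 ± 0.19 (edgeR adjusted p = 0.0031), and differed by -0.10 ± 0.20 between IT325 and wild-type (edgeR adjusted p = 0.77). Each genotype had 4 libraries labelled P1 and 4 labelled P2. The difference between fr105 and wild-type was 0.17 (edgeR adjusted p = 0.82) in the P1 libraries and 1.19 in the P2 libraries (edgeR adjusted p = 0.00068), while the test of the difference between the sets gave 1.02 (edgeR adjusted p = 0.21). It was 0.50 with cells thinned to 1500 transcripts (edgeR adjusted p = 0.12).

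In neutrophil-like cells *il10rb* was at 135 to 364 CPM in wild-type, 70.0 to 217 in IT325 and 173 to 398 in fr105 libraries. Of the 5 genes tested there it was the only one called between the mutants, with fr105 above IT325 by 0.74 ± 0.22 (edgeR adjusted p = 0.011), where 25.7% of genes were called (13.2% higher). Against wild-type fr105 differed by 0.43 ± 0.22 (edgeR adjusted p = 0.19). Its level differed between the neutrophil-like clusters. In cluster 1 it was at 381 CPM in wild-type cells, 368 in IT325 cells and 416 in fr105 cells, and in cluster 0 at 149 in wild-type and 171 in fr105 cells. In cluster 2 it was at 141 CPM in 97 IT325 cells, 28.2 in 5 wild-type cells and 184 in 5 fr105 cells. Cluster 1 held 61 wild-type, 15 IT325 and 69 fr105 cells. The part of these shares in the difference was not tested.

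The other interleukin receptors that could be tested did not pass the threshold. *il2rga*, the common gamma chain that lymphocyte interleukin receptors share, was at 57.9 to 132 CPM in wild-type, 61.3 to 96.2 in IT325 and 58.0 to 119 in fr105 libraries, and its log2 differences were 0.01 ± 0.18 and 0.03 ± 0.18 (edgeR adjusted p = 0.97 and 0.99). The groups overlapped. It was highest in T cell-like cells (455 CPM) and found in 179 of 444 neutrophil-like cells, at 95.3 CPM in wild-type cells, 110 in IT325 cells and 106 in fr105 cells of that class. The receptor chains of interleukin 13 were rarer. *il13ra1* had 112 transcripts (9 in wild-type cells, 77 in IT325 cells and 26 in fr105 cells), and *il13ra2*, known in mammals as a decoy receptor, had 41 (1, 35 and 5). Of the *il13ra2* transcripts 28 lay in 12 of the 16 cells of cluster 13, which holds IT325 cells alone. *il11ra* had 43 transcripts, of which 29 were in fr105 cells, and *il15ra* had 43.

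Of the chemokines, *ccl34b.8* showed the largest difference between genotypes among the 14 genes tested. Wild-type cells held 1 transcript of it, IT325 cells 223 and fr105 cells 75. Its level was 0 in 7 wild-type libraries and 3.47 CPM in the other, between 15.4 and 142 in IT325 libraries (median 95.8), and between 0 and 90.0 in fr105 libraries (median 35.6). All IT325 libraries were above wild-type, and 1 fr105 library was at 0. Over all cells the ratio to wild-type was 136 in IT325 (95% counting interval 24.2 to 5395) and 72.6 in fr105 (12.6 to 2905). The gene passed the filter on low counts through the mutants, in which it is high, so its test against wild-type (edgeR adjusted p = 2.3e-06 and 0.00029) adds nothing to these counts. The mutants differed by -1.12 ± 0.46 (edgeR adjusted p = 0.065), and by -2.05 in the P1 and -0.27 in the P2 libraries, with an edgeR adjusted p of 0.69 for the difference between the sets. The value passed the threshold without fr105 replicate 6 or 7 or IT325 replicate 1 or 3, between -1.41 and -1.27.

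*ccl34b.8* was foremost a transcript of macrophage-like cells, which gave 56.2% of it. It was found in 0 of 21 macrophage-like cells of wild-type, 12 of 20 of the same class in IT325 and 17 of 40 in fr105, and 0 of 21 allows up to 14.3% of cells with a UMI, which is no limit on cells that express the gene. In neutrophil-like cells it was found in 0 of 179 (up to 1.68%), 26 of 113 and 5 of 152 cells, and in cluster 3 in 1 of 39, 11 of 44 and 0 of 23 cells. The macrophage-like class was 1 cluster, with 21 wild-type, 20 IT325 and 40 fr105 cells. After thinning it was found in 0% of wild-type cells, 5.29% of IT325 cells and 3.62% of fr105 cells.

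Its neighbour in name, *ccl34b.4*, lay in other cells. Of its 348 transcripts, 194 were in T cell-like cells (27 of 45 cells, 1638 CPM) and 121 in cluster 8. It was at 10.7 to 162 CPM in wild-type (median 72.6), 0 to 178 in IT325 (median 17.9) and 0 to 139 in fr105 libraries (median 20.8), and no comparison passed the threshold (edgeR adjusted p = 0.32, 0.21 and 0.75). With no filter on low counts edgeR called both mutants against wild-type (adjusted p = 0.015 and 0.00036). *cxcl32b.1* was also mostly in T cell-like cells (89.6% of 77 transcripts). *ccl35.2* (65 transcripts) had its largest share in B cell-like cells (43.1%) and *ccl34a.4* (56) in macrophage-like cells (85.7%). *cxcl12a*, the ligand of Cxcr4 that holds blood stem cells in their niche in mammals, had 64 transcripts in 45 cells, 62.5% in neutrophil-like cells. *ccl27b* (69), *cxcl20* (56), *ccl38.1* (28), *ccl19a.1* (26), *ccl34b.9* (24) and *ccl34b.1* (23) were the others with 20 or more. Of these, *cxcl20*, *ccl38.1* and *ccl19a.1* had 0 transcripts in wild-type cells. The ccl34b genes form a family of similar copies, and the authors discarded reads that matched more than 1 locus, so their levels are uncertain.

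Among chemokine receptors only *ccr12a* could be tested. It had 223 transcripts, 53.8% in macrophage-like cells (36 of 81 cells), and differed by -0.91 ± 0.62 in IT325 and -0.75 ± 0.64 in fr105 against wild-type (edgeR adjusted p = 0.30 and 0.43). *cxcr4a*, a receptor of Cxcl12, had 90 transcripts in cells of wild-type fish, 1 in those of IT325 and 3 in those of fr105. Of its 94 transcripts 66 were in B cell-like cells and 11 in T cell-like cells, and B cell-like cells numbered 36, 2 and 2. *cxcr3.1*, whose mammalian counterpart guides activated T cells, had 69, 5 and 5 transcripts, 70.9% in T cell-like cells. In that class it was found in 17 of 25 wild-type cells (742 CPM) and in 3 of 19 IT325 cells (66.6 CPM), and the single fr105 cell had none. The level of *cxcr4a* could not be compared within B cell-like cells, since the mutants gave too few of them. *CCR8* had 169 transcripts as 1 to 4 per cell in 145 cells, *ccr12b.2* had 125, *ccr10* 24 and *ccr12b.1* 21.

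In the TNF family, neither receptor that could be tested passed the threshold. *tnfrsf1a* and *tnfrsf1b*, the receptors of TNF itself, had 472 and 371 transcripts. *tnfrsf1a* was at 38.1 to 90.0 CPM in wild-type, 46.2 to 79.2 in IT325 and 48.4 to 109 in fr105 libraries, and its difference from wild-type was -0.01 ± 0.20 in IT325 and 0.04 ± 0.20 in fr105 (edgeR adjusted p = 0.99 and 0.91). *tnfrsf1b* was at 28.9 to 101 CPM in wild-type (median 62.3), 34.4 to 67.4 in IT325 (median 50.4) and 34.8 to 83.3 in fr105 libraries (median 45.2). The groups overlapped for both genes. For *tnfrsf1b* the differences were -0.11 ± 0.23 and -0.23 ± 0.24 (edgeR adjusted p = 0.78 and 0.52). In neutrophil-like cells *tnfrsf1b* was at 88.5 CPM in wild-type cells, 77.2 in IT325 cells and 63.0 in fr105 cells. The ligands *tnfb* (48 transcripts), *tnfsf10* (37) and *tnfsf13b* (25), which encode a lymphotoxin-like TNF, a death receptor ligand and the B cell survival factor Baff, were too rare to test. *tnfrsf9a* had 97 transcripts, 50.5% in cluster 8. *tnfrsf21* had 100, *TNFRSF19* 28, and 75.0% of the latter lay in cluster 10. *TNFRSF19* was at 45.5 CPM in fr105 replicate 1, 19.5 in fr105 replicate 5 and at most 5.64 in any other library.

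*tnfaip8l2a*, related to a mammalian brake on immune signalling, was higher in fr105 than in both other genotypes. It was at 74.4 to 164 CPM in wild-type (median 133), 92.3 to 121 in IT325 (median 106) and 169 to 325 in fr105 libraries (median 190). The fr105 libraries did not overlap either group. The difference was 0.64 ± 0.15 against wild-type (edgeR adjusted p = 0.0018) and 0.73 ± 0.14 against IT325 (edgeR adjusted p = 0.00036), and it was -0.09 ± 0.15 between IT325 and wild-type (edgeR adjusted p = 0.70). In the P2 libraries alone the values were 0.53 (edgeR adjusted p = 0.11) and 0.55 (0.090), and with thinned cells the second was 0.44 (0.16). In neutrophil-like cells, which gave 62.1% of its transcripts, it differed by 0.43 ± 0.21 against wild-type (edgeR adjusted p = 0.15).

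Apart from *tnfaip3*, described below, the other TNF-induced proteins were too rare to test. *TNFAIP8L2* had 137 transcripts, *tnfaip8l3* 79, *TNFAIP8L1* 63, *tnfaip2b* 51, *tnfaip2a* 39 and *TNFAIP1* 23. *tnfaip2a* had 1 transcript in wild-type cells, 13 in IT325 cells and 25 in fr105 cells, and 87.2% of them were in neutrophil-like cells.

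*tnfaip3*, an NF-kB target whose product (A20 in mammals) restrains that pathway, was lower in fr105. It was at 43.0 to 150 CPM in wild-type (median 63.2), 27.6 to 97.3 in IT325 (median 52.3) and 11.6 to 84.1 in fr105 libraries (median 42.4), with overlapping groups. It fell by 0.91 ± 0.31 in fr105 (edgeR adjusted p = 0.031), and the difference was -0.53 ± 0.29 in IT325 (edgeR adjusted p = 0.19). The fr105 call was lost on leaving out fr105 replicate 1, 3 or 6 or wild-type replicate 5, 7 or 8 (-0.89 to -0.78, adjusted p = 0.050 to 0.079), with a minimum of 3000 transcripts per cell (-0.69), and in the P1 libraries alone (-0.25, adjusted p = 0.81, against -1.25 in P2, where the difference between the sets had an adjusted p of 0.51). It was highest in B cell-like (305 CPM) and T cell-like cells (253). The 15 B cell-like cells with *tnfaip3* were all wild-type. In macrophage-like cells it was at 128 CPM in wild-type cells, 77.6 in IT325 cells and 96.3 in fr105 cells, and in neutrophil-like cells at 43.6, 33.5 and 37.4.

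**Figure D5:**
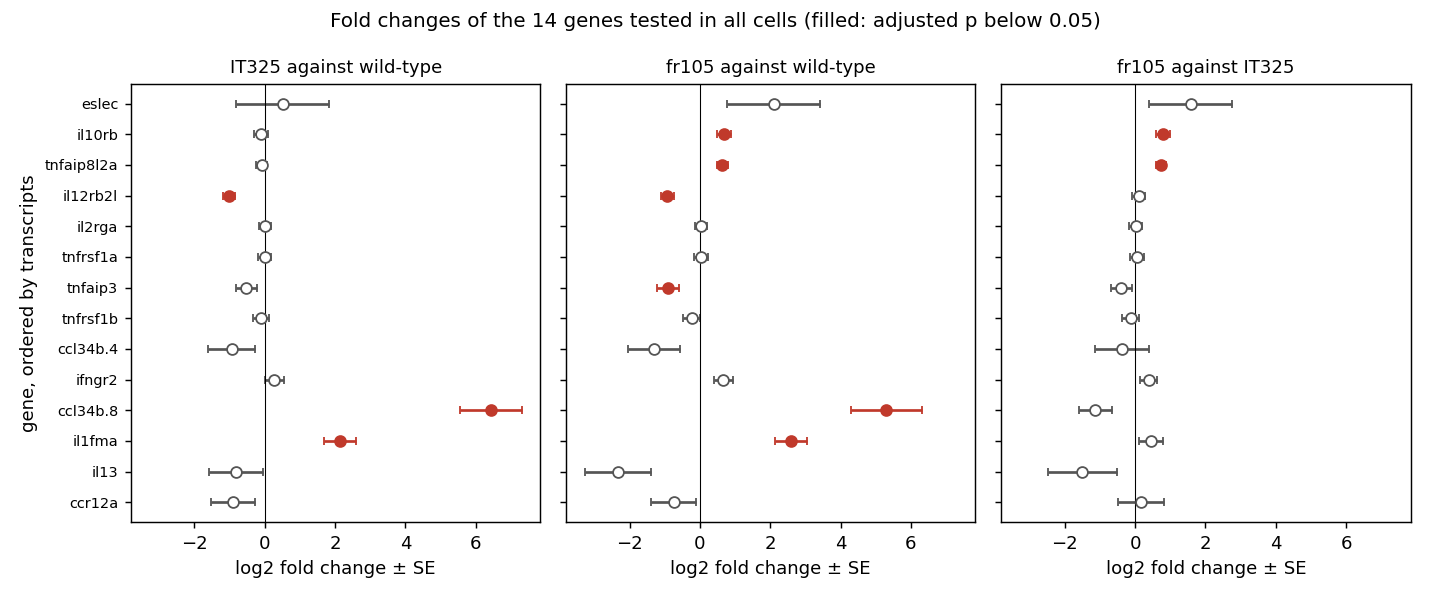
Log2 difference with its SE for the 14 genes tested over all cells in each comparison; filled red points are past an adjusted p of 0.05. *il1fma* and *ccl34b.8* are higher and *il12rb2l* lower in both mutants, and *il10rb* and *tnfaip8l2a* are higher in fr105 than in either other genotype.

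Of the interferon genes, *ifngr2*, a chain of the interferon gamma receptor, had 330 transcripts. It was at 12.6 to 63.7 CPM in wild-type (median 37.3), 31.6 to 61.3 in IT325 (median 41.9) and 41.0 to 97.8 in fr105 libraries (median 53.1). The groups overlapped, and it differed by 0.27 ± 0.26 in IT325 and 0.66 ± 0.27 in fr105 against wild-type (edgeR adjusted p = 0.49 and 0.070). Without wild-type replicate 6 the second was 0.81 (adjusted p = 0.032). In macrophage-like cells *ifngr2* was at 16.7 CPM in wild-type cells, 25.8 in IT325 cells and 109 in fr105 cells. *ifngr1* had 70 transcripts, *ifngr1l* 28 and *ifnphi1*, a type I interferon of fish, 25. *csf1rb*, a receptor of macrophage growth factors, had 156 transcripts and *csf2rb*, the common beta chain of several growth factor receptors, 112, both with their largest share in cluster 3 (35.3% and 46.4%).

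Among the genes below the filter, several had libraries that did not overlap between genotypes. Of the 58 genes with 20 or more transcripts, 5 had all IT325 libraries above all wild-type libraries (8.62%), where 1.31% of the 12295 genes with as many transcripts did. Besides *ccl34b.8* these were *tnfrsf14*, *tnfrsf11a*, *ifngr1* and *cxcl20*, which are given here because of their values. *tnfrsf14*, *tnfrsf11a* and *cxcl20* reached 20 transcripts only through IT325, in which they are high, and *ccl34b.8* only through the mutants. The share among the 58 genes is therefore no support for a difference. *tnfrsf14*, a co-receptor of lymphocytes in mammals, had 59 transcripts in 40 cells of all 8 IT325 libraries (5.78 to 31.0 CPM), 1 transcript in wild-type and 0 in fr105. The ratio to wild-type was 36.0 (95% counting interval 6.21 to 1445). Against 3 transcripts over the group, the limit for a count of 0, the ratio to fr105 was 12.4. This ratio takes the count of 59 without error, and neither ratio covers the spread between libraries. In IT325 it was found in 11 of 59 erythroid-like cells, 8 of 113 neutrophil-like cells, 6 of 44 cells of cluster 3 and 5 of 20 macrophage-like cells. *tnfrsf11a*, the receptor for the osteoclast factor Rankl, had 63 transcripts in IT325 (9.19 to 42.2 CPM), 3 in wild-type and 6 in fr105, and was found in 1 of 179, 21 of 113 and 3 of 152 neutrophil-like cells of wild-type, IT325 and fr105. *cxcl20* had 42 transcripts in IT325 (6.13 to 18.8 CPM), 0 in wild-type and 14 in fr105. Its ratio of IT325 to wild-type, taken against 3 transcripts in the same way, was 8.54. *ifngr1*, the other chain of the interferon gamma receptor, had 47, 4 and 19 transcripts, and 81.4% lay in neutrophil-like cells.

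The IT325 cells also held the most transcripts, and the part of transcripts per cell in these differences was not tested. With each cell thinned to 1500 transcripts *tnfrsf14* was found in 3.62% of IT325 cells, 0.290% of wild-type cells and 0% of fr105 cells. In the other directions and comparisons 1 or 2 of the 58 genes did not overlap. These were *il12rb2l*, lower in both mutants (1.72% of the 58 in each, against 1.09% and 0.643% of all genes), *tnfaip8l2a*, higher in fr105 than in wild-type and than in IT325 (1.72% in each, against 1.05% and 1.51%), and *tnfrsf14* and *tnfrsf11a*, lower in fr105 than in IT325 (3.45%, against 0.976%).

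Genes through which these receptors signal, together with chemokine and cytokine receptors left out by the rule, were taken from lists and tested over all cells. The lists were chosen with earlier results of these data known. Over all cells, B cell-like cells numbered 36, 2 and 2 and T cell-like cells 25, 19 and 1 in wild-type, IT325 and fr105. The part of these numbers in the differences was not tested. Of 22 JAK-STAT genes, 4 were tested over all cells, and 0 were called in each of the 3 comparisons by edgeR and 0 by DESeq2, with 2 at an unadjusted edgeR p under 0.05 in IT325 against wild-type and 0 in the other comparisons. In neutrophil-like cells, *stat5a* was called among 3 tested, at 0.59 in IT325 against wild-type and -0.66 in fr105 against IT325. There 37% and 25.7% of all genes tested were called in these comparisons. Of the 4 cytokine receptors left out by the rule, 2 were tested over all cells and 0 were called. In neutrophil-like cells *il6r* was tested. It was lower in fr105 than in wild-type (-0.74, edgeR adjusted p = 0.0060) and than in IT325 (-0.88, edgeR adjusted p = 0.00080). There 19.6% and 25.7% of all genes tested were called. Between IT325 and wild-type *il6r* differed by 0.14 (edgeR adjusted p = 0.58).

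Of 31 NF-kB and TNF signalling genes, 7 were tested over all cells, and 2 were called by edgeR in IT325 against wild-type and 2 in fr105 against wild-type, where 21.8% and 23.9% of all genes tested were called. *nfkbiab*, an inhibitor of NF-kB, was lower in IT325 (-1.63) and in fr105 (-0.80), and in neutrophil-like cells by edgeR too (-1.75 and -1.22, adjusted p = 1.0e-07 and 4.8e-05). *TAB2* was lower in fr105 (-0.80). *BIRC2*, which acts at TNF receptors, was higher in IT325 by 0.49, past the threshold in edgeR (adjusted p = 0.048) and not in DESeq2 (adjusted p = 0.057), and by 0.66 in neutrophil-like cells (edgeR adjusted p = 0.021).

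Of 15 chemokine signalling genes, 6 were tested over all cells. Of these, 3 were called in each mutant against wild-type, where 21.8% and 23.9% of all genes tested were called. The list holds the receptors *cxcr4b*, *ccr9a*, *ccr7* and *cxcr3.2*, which the rule left out. *cxcr4b* was lower in IT325 and in fr105 over all cells (-1.35 and -0.55) and fell in neutrophil-like cells as well (-0.80 and -0.43). *ccr9a* was lower over all cells (-2.25 and -1.50), with an adjusted p for fr105 of 0.029 in edgeR and 0.061 in DESeq2, which did not call it. Of its wild-type transcripts, 66 were in 22 of 36 B cell-like cells and 37 in 14 of 25 T cell-like cells, and 9 of 19 T cell-like cells of IT325 had it. *rac2*, a small GTPase of leukocyte movement, was lower in IT325 over all cells (-0.46, edgeR adjusted p = 0.025) and higher in fr105 (0.39, edgeR adjusted p = 0.049), while in neutrophil-like cells its differences of -0.04 and 0.20 did not pass the threshold (edgeR adjusted p = 0.83 and 0.31). Between the mutants, *nfkbiab* (0.83), *REL* (0.78), *rac2* (0.85) and *cxcr4b* (0.80) were higher in fr105 over all cells, where 28.7% of all genes were called, and of these *cxcr4b* alone was called in neutrophil-like cells (0.37, edgeR adjusted p = 0.010).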

How the data were processed

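Single cells of WKM were measured in 24 libraries. Per the study's methods and the labels, the authors demultiplexed reads (bcl2fastq 2.17.1.14), aligned them with BWA 0.6.2-r126 in sense direction to extended Ensembl gene models, discarded reads with several matches, and corrected UMI counts for repeated draws. The deposited values are therefore expected counts (estimated transcript counts), with no normalization. UMIs have 6 bases, and inverting the correction returned whole UMIs within 4.1e-12. The 120 genes and all lists were chosen with earlier results of these data known. Gene names came from an Ensembl table that named 17966 of 23981 genes.

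Of the 192 listed barcodes per library, the 96 that held more transcripts were used. Barcodes with at least 1500 transcripts were clustered without the 120 genes (2000 variable genes, 30 components, 15 neighbours, Leiden resolution 1, leidenalg 0.10.2) and named from marker lists, with at least 3 markers and a list share of 50%. A name also needed at least 1.5 times the markers of the next list, and no other list with more of the 10 leading genes. Clusters with few transcripts per cell also needed a leading gene from the list. Counts were summed per library, rounded, filtered with filterByExpr and tested with edgeR 4.0.16 (quasi-likelihood, TMM, all 3 genotypes in 1 fit), adjusting over all genes tested. The SE of a log2 difference was its size divided by the square root of the F statistic. Tests of neutrophil-like cells used their sums per library. Exact binomial intervals and counting intervals (95%) and limits for a count of 0 (3 counts) cover counting error only. Steps were tested on simulated data. Values in full are given for *il4*, *il13*, *eslec*, the genes called in either fit and the 10 with most transcripts; the others with at least 20 transcripts are given by their totals, and the rest by counts. Alternatives were DESeq2 1.42.0 (test or size factors), no filter, a minimum of 3000 transcripts, thinning to 1500, sets P1 or P2 alone, IT325 P1 libraries alone, each library left out, the replicate number as a block, other cell choices and, added after seeing the data, leaving out cluster 10. Libraries were treated as replicates, though p-values then measure the spread between libraries, which may be technical.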

Additional observations from a re-analysis of the deposited data

Results flagged for a closer look

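In 66 groups of 8 libraries, the gap from the highest or lowest library to the next was taken as a share of the range. It was above Dixon's 95% critical value in 12 groups, where normally distributed values give about 1 in 20. Many of these levels are at or near 0, so the test cannot say whether 12 is more than chance gives. Over all cells, in CPM, these were *il4* in wild-type replicate 3 (32.2, next 12.02) and fr105 replicate 7 (24.7, next 11.61), *eslec* in wild-type replicate 4 (1403.6, next 16.12) and fr105 replicate 5 (2802.1, next 932.43), *ccl34b.4* in IT325 replicate 4 (178.2, next 61.3), *ccl34b.8* in wild-type replicate 1 (3.5, the others at 0), *il1fma* in wild-type replicate 3 (43.0, next 16.77), *tnfaip8l2a* in fr105 replicate 4 (325.1, next 216.27) and *tnfrsf1a* in wild-type replicate 1 (38.1, below the next at 68.75).

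In neutrophil-like cells they were *il1fma* in wild-type replicate 3 (12.7, the others at 0) and fr105 replicate 1 (172.6, next 96.59), and *ccl34b.8* in fr105 replicate 6 (56.0, next 7.95). Outside the cells compared, the unused barcodes held 109 transcripts of the 120 genes, and used barcodes under 1500 transcripts held 829.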

How the results depend on the processing

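Of 1894 alternative values for the 57 tested differences of single genes, 1846 remained on their side of the threshold, 23 lost it and 25 gained it. For each difference, 24 of these values came from fits that left out 1 library and share most data with the main fit. Settings in which a gene was not tested gave no value. No called value changed sign, while 107 uncalled ones did. Counts of called genes are given as IT325 against wild-type, fr105 against wild-type and fr105 against IT325. Over all cells (3, 6 and 2) they were 19, 23 and 12 of 118 genes tested with no filter on low counts. There 1538, 1549 and 1580 of all 23644 genes tested were called. With cells thinned to 1500 transcripts they were 1, 2 and 1 of 3 genes tested, where 186, 209 and 234 of all 775 were called. In the P2 libraries alone the third count was 1, where 663 of all 3613 genes tested were called. DESeq2's Wald test gave 4, 7 and 2, with *eslec* among the first 2 counts, and 1, 1 and 1 in neutrophil-like cells. Leaving out 1 library gave 3 to 4, 5 to 8 and 2 to 3. In neutrophil-like cells (1, 1 and 1) they were 11, 4 and 6 with no filter, 2, 2 and 1 at resolution 2, and 2, 3 and 2 with cells chosen by markers without clusters. By edgeR the third was 0 with a minimum of 3000 transcripts per cell and 0 in the P1 libraries alone, where *il10rb* had adjusted p = 0.076 and 0.27. Leaving out 1 library gave 1 to 1 in each. Thinned neutrophil-like cells left none of these genes to test. The cause of these changes was not tested beyond the number of genes each setting could test.

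Same-numbered libraries had correlations of their deviations between -0.15 and 0.18, which gave no sign that the replicate numbers of the labels pair them. For IT325 these correlations cannot decide it, since its numbers 1 to 4 are labelled P2 and those of the other genotypes P1. The fit with the replicate block used only numbers that both genotypes have, which are 1 to 4 in the comparisons with IT325. It gave counts of 1, 5 and 0 over all cells and 1, 1 and 0 in neutrophil-like cells. Of all genes tested it called 509 of 3259, 559 of 2482 and 215 of 3537 over all cells. In neutrophil-like cells these were 353 of 1178, 251 of 1276 and 138 of 1592. Depth limits the 106 genes that could not be tested over all cells.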
